A study of Mus musculus with 40 samples.

Results

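The genes described here make cholesterol from acetyl-CoA or set the pace of that pathway in mouse liver. The enzymes were *Hmgcs1*, *Idi1*, *Sqle* and *Lss*, and the regulators were *Srebf2*, *Insig1* and *Insig2*, which made 7 of 21938 protein-coding genes. They were taken from a list of cholesterol synthesis and LDL uptake genes. None of the 7 encodes an uptake receptor, and uptake enters only through SREBP-2, the product of *Srebf2*, and the Insig proteins that hold it back. ChIP-seq peaks of the corepressors SMRT and NCoR and of the histone deacetylase HDAC3 were counted at a gene when their centre lay inside it or within 50 kb of it, and each peak was assigned to the nearest transcription start site (TSS) of a protein-coding gene. By this rule the genes held 69 of 60254 peaks, and these merged into 39 sites.

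The study mapped chromatin in mouse liver by ChIP-seq, in 40 samples that fell into 18 groups. For each of SMRT, NCoR and HDAC3, 1 list of peaks was used, called from 3 pooled libraries. All 9 libraries came from whole livers of ad libitum fed male C57BL/6 mice on standard chow, with the floxed *Bcl6* alleles (*Bcl6* fl/fl) and no Cre, which the labels call wild type. The other 31 samples were not analysed here, so neither genotypes nor feeding states were compared. They include 1 labelled as the fed wild-type input of these 3 cofactors, and the authors called the peaks against input. The sources used here do not give the age of the mice. Whole liver holds other cells beside hepatocytes, and the peak lists have no expression values with which the tissue label could be checked. The lists give positions only, with no height or value per library and no sequencing depth, so no result below has an error between animals. Ranges in brackets are exact (Clopper-Pearson) 95% intervals that cover counting error only.

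Cholesterol synthesis is switched on by SREBP-2, a transcription factor made as a membrane protein of the endoplasmic reticulum. When sterols are plentiful, INSIG1 and INSIG2 bind its escort SCAP and keep the complex in the endoplasmic reticulum. When sterols fall, the complex moves to the Golgi, where proteases release the part of SREBP-2 that enters the nucleus and binds sterol regulatory elements (SREs), often beside NF-Y, a factor that binds CCAAT boxes. SMRT and NCoR are related scaffold proteins that bring HDAC3 to chromatin, where it removes acetyl groups from histones. Sites are called shared where NCoR had both a SMRT and an HDAC3 peak with centres at most 200 bp away, and NCoR-only where it had neither.

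The sequences that follow are the NCoR intervals of the shared site nearest to a TSS of each gene that had one. Places (promoter, intron, exon, untranslated region, intergenic) are given with respect to protein-coding genes, and noncoding genes are named where a printed interval overlaps their exons. Each sequence is on the plus strand of GRCm38 (mm10), and capitals mark matches to the motif strings described further on. No string matched in the *Hmgcs1*, *Srebf2* and *Insig1* intervals. The match in the *Lss* interval is a CCAAT near its end, outside the central 200 bp in which motifs were counted. The *Insig2* interval holds, from left to right, an NF-Y, an HNF6/CUX2 and a FOX match, each read on the minus strand.
Hmgcs1, chr13:119698466-119698694, in intron 1 and in an exon of the antisense gene Gm48342: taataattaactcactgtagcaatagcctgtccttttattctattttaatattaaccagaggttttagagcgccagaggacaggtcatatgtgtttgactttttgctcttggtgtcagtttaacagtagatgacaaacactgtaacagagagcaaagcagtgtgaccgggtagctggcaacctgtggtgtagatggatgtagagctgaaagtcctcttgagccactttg
Lss, chr10:76572242-76572470, between Lss and Ftcd: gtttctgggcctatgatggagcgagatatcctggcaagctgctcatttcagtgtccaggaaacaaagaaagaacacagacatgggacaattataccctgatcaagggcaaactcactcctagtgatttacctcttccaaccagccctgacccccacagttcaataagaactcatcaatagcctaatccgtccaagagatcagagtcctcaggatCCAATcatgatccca
Srebf2, chr15:82150337-82150565, in intron 1: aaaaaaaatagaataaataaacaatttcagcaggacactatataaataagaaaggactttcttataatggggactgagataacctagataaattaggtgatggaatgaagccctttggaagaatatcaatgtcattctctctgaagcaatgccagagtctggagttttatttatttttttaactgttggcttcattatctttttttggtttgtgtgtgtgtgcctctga
Insig1, chr5:28031858-28032086, between protein-coding genes and overlapping an exon of Gm43611: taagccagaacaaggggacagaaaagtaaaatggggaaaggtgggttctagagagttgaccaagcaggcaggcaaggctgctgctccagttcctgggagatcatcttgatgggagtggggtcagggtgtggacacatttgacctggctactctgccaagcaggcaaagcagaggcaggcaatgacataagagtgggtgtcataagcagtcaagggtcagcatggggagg
Insig2, chr1:121335908-121336136, intergenic: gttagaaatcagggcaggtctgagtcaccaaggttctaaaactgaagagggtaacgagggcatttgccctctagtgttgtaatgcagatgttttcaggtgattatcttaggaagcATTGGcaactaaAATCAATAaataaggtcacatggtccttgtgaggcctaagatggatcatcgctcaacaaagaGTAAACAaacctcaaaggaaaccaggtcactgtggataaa

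A further set of intervals was chosen after the matches had been seen. It shows the NCoR peak at the *Insig1* promoter, with its NF-Y match in capitals, an NCoR-only peak upstream of *Hmgcs1* that held an HNF4 half-site and then a BCL6/STAT match, and a shared site in *Srebf2* that held a pair of HNF4 half-sites.
Insig1, chr5:28071078-28071306, promoter, overlapping exon 1 of the noncoding Gm26608: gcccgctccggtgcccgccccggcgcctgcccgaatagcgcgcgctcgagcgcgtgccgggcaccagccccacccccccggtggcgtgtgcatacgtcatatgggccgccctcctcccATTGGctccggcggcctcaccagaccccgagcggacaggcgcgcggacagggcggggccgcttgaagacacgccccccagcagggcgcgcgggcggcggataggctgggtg
Hmgcs1, chr13:119679785-119680013, intergenic: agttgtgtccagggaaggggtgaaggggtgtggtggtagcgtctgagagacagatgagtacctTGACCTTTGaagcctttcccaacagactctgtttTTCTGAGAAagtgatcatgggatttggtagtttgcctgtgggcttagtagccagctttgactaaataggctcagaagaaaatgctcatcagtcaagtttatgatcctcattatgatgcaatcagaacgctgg
Srebf2, chr15:82183700-82183928, in intron 10: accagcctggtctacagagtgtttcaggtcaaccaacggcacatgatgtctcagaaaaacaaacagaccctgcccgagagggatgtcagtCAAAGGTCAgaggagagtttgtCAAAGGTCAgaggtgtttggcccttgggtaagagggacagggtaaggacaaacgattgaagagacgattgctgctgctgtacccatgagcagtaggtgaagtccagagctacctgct

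All 7 genes had NCoR peaks (72.3% of protein-coding genes did), 6 had HDAC3 peaks (52.1%), 5 had SMRT peaks (43.1%) and 5 had a shared site (39.2%). *Hmgcs1* and *Srebf2* held 4 shared sites each, *Insig2* held 2, *Lss* and *Insig1* held 1 each, and *Idi1* and *Sqle* held none. The median was 7 NCoR peaks and 1 shared site per gene, beside 2 and 0 over all protein-coding genes. All but *Idi1* therefore lay above the middle of the genome in NCoR peak number, and the counts have no spread from which neighbours in this order could be told apart. In this background a peak counts for every gene in reach of it. The background takes in all protein-coding genes with no selection for expression in liver, and genes active in liver were not counted apart.

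**Figure D1:**
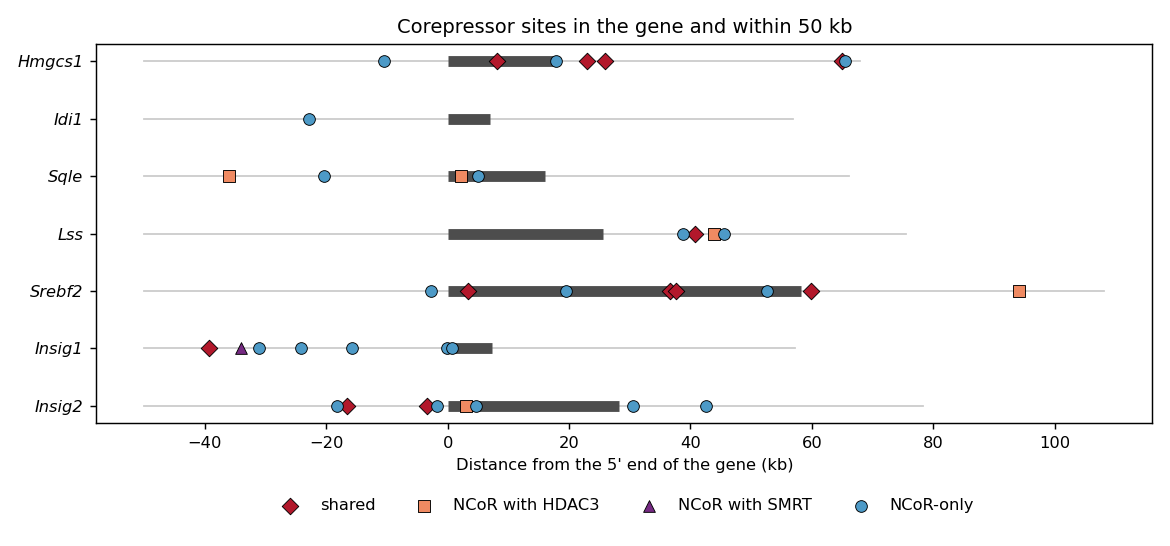
Corepressor sites along each of the 7 genes, with the distance from the 5′ end of the gene in kb on the horizontal axis. The thick bar is the gene, the thin line the stretch searched, and each symbol 1 NCoR site by class. Shared sites lie within and downstream of Hmgcs1 and Srebf2, upstream of Insig1 and Insig2, and 40.7 kb downstream of the Lss TSS, past the end of the gene.

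*Hmgcs1* encodes the cytosolic HMG-CoA synthase, which condenses acetyl-CoA with acetoacetyl-CoA. It lies at chr13:119690379-119708260 on the plus strand (ENSMUSG00000093930.2) and had 7 NCoR, 4 HDAC3 and 4 SMRT peaks. The shared site nearest to its TSS was in intron 1, 8.12 kb downstream of the TSS, and it was also the NCoR peak nearest to that TSS. Others lay 22.8 kb and 25.8 kb downstream of the TSS, past the end of the gene and inside introns of *Nim1k*, a protein kinase gene on the opposite strand. At both of these the nearest TSS was still that of *Hmgcs1*, so 3 of its 4 shared sites were assigned to it. With noncoding TSSs counted, these 3 were nearest to *Gm48342*, an antisense gene. The remaining shared site was 64.8 kb downstream and 613 bp from the TSS of *Nim1k*. The NCoR-only peaks were 10.5 kb upstream of the TSS, 17.7 kb downstream in the untranslated end of *Hmgcs1*, and at the *Nim1k* promoter, 57 bp from its TSS. No peak of any cofactor lay at the *Hmgcs1* promoter, taken here as 1000 bp upstream to 100 bp downstream of a TSS. In the order of all genes, 5.07% had as many shared sites as *Hmgcs1* or more, and 10.4% had one nearer to a TSS.

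*Idi1* encodes the isomerase that turns isopentenyl diphosphate into dimethylallyl diphosphate, and it had the fewest peaks of the 7 genes. The gene is at chr13:8885501-8892451 on the plus strand (ENSMUSG00000058258.14). Its single NCoR-only peak, chr13:8862596-8862824, was 22.8 kb upstream, in an intron of *Wdr37* and 8269 bp from the TSS of that gene. The nearest shared site was 129 kb from the *Idi1* TSS, and 55.2% of protein-coding genes had a nearer one. No HDAC3 or SMRT peak was listed in the *Idi1* window.

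*Sqle* encodes squalene epoxidase, which adds the first oxygen on the way to sterols. At this gene, chr15:59315077-59331192 on the plus strand (ENSMUSG00000022351.14), 4 NCoR and 2 HDAC3 peaks were listed, and no SMRT peak. Intron 1 held an NCoR peak with HDAC3, 2.13 kb downstream of the TSS, and intron 2 an NCoR-only peak at 4.91 kb. The other NCoR peak with HDAC3 was 36.1 kb upstream, and the other NCoR-only peak 20.3 kb upstream. The latter interval was 93.0% repeat-masked sequence, the highest share among the 39 sites. All 4 NCoR peaks were assigned to *Sqle*, and 2 with noncoding TSSs counted. Its nearest shared site was 109 kb away, and 51.0% of genes had a nearer one.

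*Lss* encodes lanosterol synthase, which closes the sterol ring system. The gene is at chr10:76531588-76557138 on the plus strand (ENSMUSG00000033105.12) and held no peak itself. All 4 NCoR peaks of its window lay 38.8 kb to 45.5 kb downstream of its TSS, within 6.77 kb of each other. The nearest TSS of all 4 was that of *Ftcd*, a liver enzyme of histidine and folate metabolism, and none was assigned to *Lss*. The shared site was 3292 bp upstream of the *Ftcd* TSS, an NCoR peak with HDAC3 was at the *Ftcd* promoter 166 bp from the TSS, and NCoR-only peaks were 5278 bp upstream and 1493 bp downstream. Every peak counted at *Lss* was therefore also a peak assigned to *Ftcd*.

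*Srebf2*, the gene of SREBP-2, had 8 NCoR, 5 HDAC3 and 4 SMRT peaks and the most peaks of the 7 genes. It lies at chr15:82147181-82205379 on the plus strand (ENSMUSG00000022463.8). A shared site in intron 1, 3.25 kb downstream of the TSS, was closer to a TSS of its gene than any other shared site of the 7 genes, and 6.02% of protein-coding genes had a nearer one. Its interval had the lowest GC content of the 39 sites (32.5% in the central 200 bp) and was 45.9% repeat-masked. A pair of shared sites, 1024 bp apart, lay in intron 10 at 36.6 kb and 37.6 kb, and the last was at 59.8 kb, in an untranslated part of *Shisa8*. The nearest TSS of these 3 was that of *Shisa8*, so 1 of the 4 shared sites was assigned to *Srebf2*. NCoR-only peaks lay 2.81 kb upstream, in intron 1 at 19.5 kb and in exon 17 of 19 at 52.6 kb, and an NCoR peak with HDAC3 lay 94.1 kb downstream in an intron of *Cenpm*, a centromere protein gene. No peak was at the *Srebf2* promoter.

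*Srebf2* also hosts the microRNA gene *Mir33*, at chr15:82198122-82198190 on the plus strand. Its product miR-33 lowers cholesterol export by acting on *Abca1*. The mature sequence is given from RefSeq (GRCm38.p6) with the seed, bases 2 to 8, in capitals, since this small RNA is made from the same transcript.
mmu-miR-33-5p, chr15:82198127-82198147: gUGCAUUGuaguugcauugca
The NCoR-only peak in exon 17 was 1652 bp downstream of the start of the *Mir33* hairpin. The nearest shared site to it was the one at *Shisa8*, 8870 bp downstream.

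*Insig1* and *Insig2* had 15 NCoR peaks between them, all assigned to the genes themselves, and were the members with a peak at their own promoter. With the TSSs of all annotated transcripts, noncoding ones included, 4 of the 15 stayed assigned, 1 of 7 at *Insig1* and 3 of 8 at *Insig2*. The *Insig1* promoter peak did not, as its nearest TSS was then that of the noncoding gene *Gm26608*. No other protein-coding gene had a TSS in either window. At both genes NCoR-only peaks were the most common class, with 5 of 7 sites at *Insig1* and 5 of 8 at *Insig2*. It was also the most common class of the whole list, with 56.1% of all NCoR peaks. Of protein-coding genes, 13.0% had 5 or more NCoR-only peaks.

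*Insig1*, whose transcription SREBP-2 itself raises, is at chr5:28071363-28078662 on the plus strand (ENSMUSG00000045294.11). It had 7 NCoR, 1 HDAC3 and 2 SMRT peaks. The promoter peak was NCoR-only, 171 bp upstream of the TSS, and a second NCoR-only peak lay in intron 1, 694 bp downstream. These centres were 865 bp apart, on each side of the TSS. All 5 other sites were upstream, outside protein-coding genes and inside *Gm26608*, a noncoding gene on the minus strand whose first exon overlaps the promoter peak. The shared site, at 39.4 kb, was the farthest of them, an NCoR peak with SMRT and no HDAC3 followed at 34.0 kb, and NCoR-only peaks were at 31.2 kb, 24.2 kb and 15.7 kb. The site at 34.0 kb was the only 1 of 39 in the class of NCoR with SMRT (2.56%, 0.0649% to 13.5%), beside 4.16% of all NCoR peaks.

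*Insig2* is at chr1:121304353-121332589 on the minus strand (ENSMUSG00000003721.14) and starts from 5 annotated TSSs, 1 of them at the outer end of the gene and the rest in an inner cluster. A liver transcript of *Insig2* is known to be lowered by insulin. The gene had 8 NCoR, 3 HDAC3 and 2 SMRT peaks. An NCoR-only peak covered part of the inner start region, with its centre 48 bp downstream of a TSS. An NCoR peak with HDAC3 lay 1580 bp upstream of the same cluster, inside the gene. Upstream of the outer TSS, an NCoR-only peak at 1689 bp was followed by shared sites at 3.43 kb and 16.6 kb and an NCoR-only peak at 18.2 kb. The remaining NCoR-only peaks, 25.5 kb and 37.6 kb downstream of the inner cluster, lay beyond the 3′ end. A shared site nearer than 3.43 kb was found for 6.16% of protein-coding genes. At the 16.6 kb site the SMRT centre was 150 bp to one side of the NCoR centre and the HDAC3 centre 59 bp to the other, so these partners were each in reach of NCoR and not of each other. With centres within 100 bp required, this site was no longer shared and 11 shared sites were left.

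In numbers per length of gene and flanks, the sites ran from 0.935 per 100 kb at *Idi1* to 6.52 at *Insig1*. Between these lay *Lss* at 3.19, *Sqle* at 3.44, *Srebf2* at 5.06, *Hmgcs1* at 5.94 and *Insig2* at 6.24. The median over all protein-coding genes was 1.76 NCoR peaks per 100 kb. The long *Srebf2* gene therefore had the highest count with *Insig2*, and a lower density than *Hmgcs1* and both *Insig* genes. Genes with at least as many NCoR peaks made 13.6% of all genes for *Srebf2* and *Insig2*, 18.3% for *Hmgcs1* and *Insig1*, and 39.1% for *Sqle* and *Lss*.

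**Figure D2:**
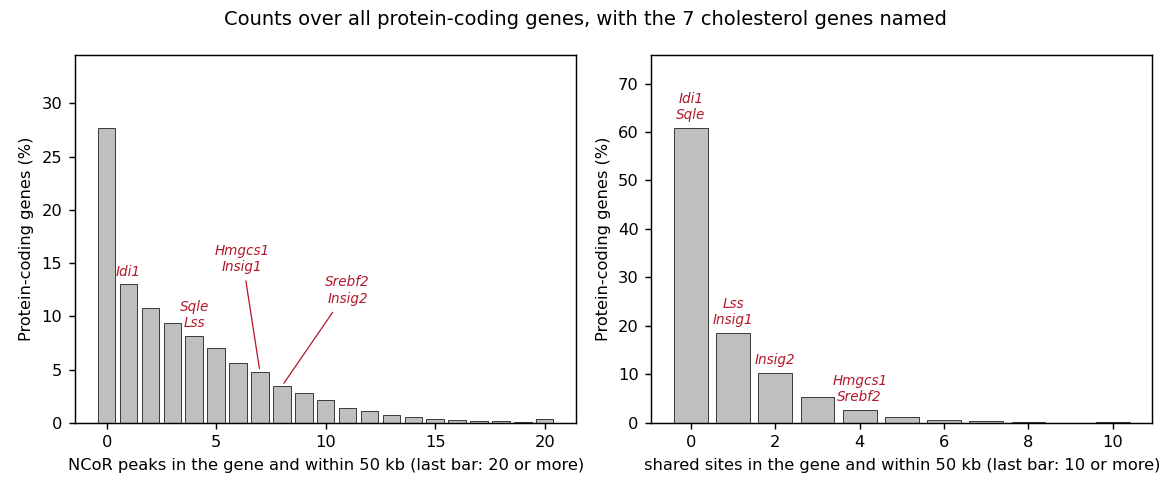
Share of the 21938 protein-coding genes (vertical axes, percent) with each number of NCoR peaks (left) or shared sites (right) in the gene and within 50 kb, with the 7 genes named at their counts. Hmgcs1 and Srebf2 sit at 4 shared sites, which 5.07% of genes reached, while Idi1 and Sqle sit in the bar at 0.

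The classes divided the 39 sites much as they divided the whole list. Shared sites made 30.8% of the 39 (17.0% to 47.6%), beside 24.9% of all NCoR peaks. NCoR-only peaks made 53.8% (37.2% to 69.9%), beside 56.1%. The 5 sites of NCoR with HDAC3 made 12.8% (4.30% to 27.4%), beside 14.8%. Each of these intervals held the value of the whole list. All 13 SMRT peaks and all 17 HDAC3 peaks of the genes had an NCoR partner, as had 95.7% and 96.5% of the peaks of those lists. The NCoR list was the longest, with 35138 peaks beside 14462 for HDAC3 and 10654 for SMRT, and a site that is NCoR-only can also be one where a partner fell short of the peak caller's threshold. What part depth or antibody had in this class was not tested.

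**Figure D3:**
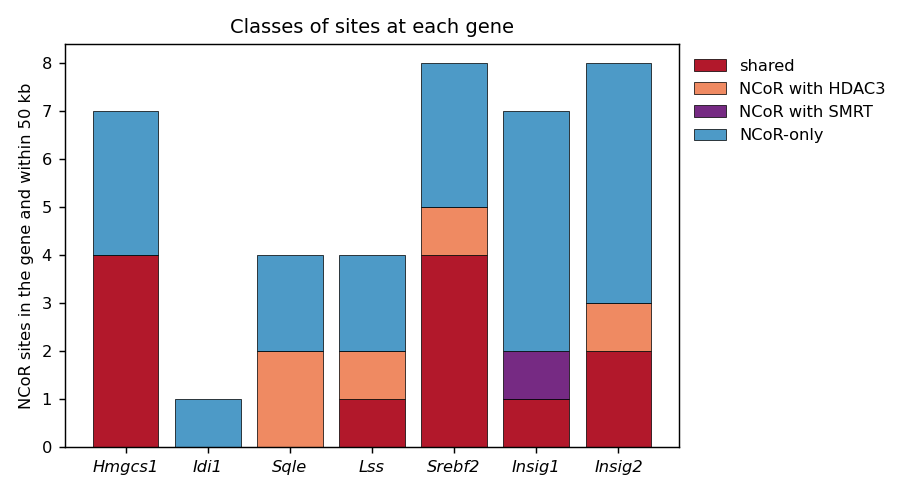
Number of NCoR sites (vertical axis) at each of the 7 genes, stacked by class. Hmgcs1 and Srebf2 each have 4 shared sites, Insig1 and Insig2 each have 5 NCoR-only sites, and Sqle is without a shared site but has 2 sites of NCoR with HDAC3.

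By rule the partner centres of a shared site lay within 200 bp of the NCoR centre. The offsets were not computed over all shared sites. Over 12 shared sites the SMRT and HDAC3 centres were a median of 15.5 bp from the NCoR centre, and 22 of the 24 offsets were within 50 bp. The largest was the 150 bp of the *Insig2* site.

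None of the 12 shared sites was at a promoter. Introns held 7, intergenic stretches 4 and an untranslated region 1, and 4 lay inside the member gene itself. Of the 21 NCoR-only peaks, 3 were at promoters (those of *Insig1*, *Insig2* and *Nim1k*), 5 in introns, 11 intergenic, 1 in a coding exon and 1 in an untranslated region. Places were not counted over all NCoR peaks, so the split between classes cannot be set against the whole list. The nearest TSS was that of the member gene for 27 of the 39 NCoR peaks, for 16 of the 21 NCoR-only peaks and for 7 of the 12 shared sites. This assignment rests on TSSs of protein-coding genes, and with the TSSs of all annotated transcripts 8 of these 27 stayed with the member gene and no peak was newly assigned to one. None of the 8 was at *Hmgcs1*, 2 each were at *Sqle* and *Srebf2*, and 4 were at the *Insig* genes. Of the 39 NCoR intervals, 5 overlapped an exon of a noncoding gene, and of the 17 called intergenic, 7 lay inside a noncoding gene. Neither these counts nor the nearest-TSS counts by class were made over all NCoR peaks, so they describe the 39 sites only. Own-promoter peaks were listed for NCoR at 2 of the 7 genes (16.8% of protein-coding genes had one) and for HDAC3 and SMRT at 0 of 7 (5.37% and 2.95%). With promoters widened to 5000 bp on either side of the TSS, 10 NCoR peaks of the genes fell in their own promoter.

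The strings searched in the central 200 bp of the NCoR peaks, on both strands, included those of the factors that switch this pathway on. The SRE string TCACNCCAC matched in 0 of the 39 windows (0% to 9.03%, where 3 counts would be 7.69%) and in 0.811% of all NCoR windows. CCAAT, the NF-Y string, matched in 11 of 39 (28.2%, 15.0% to 44.9%) and in 27.4% of all windows. At 100 bp its shares were 15.4% and 15.3%. At 400 bp it matched in 24 of 39 (61.5%, 44.6% to 76.6%) and in 44.9% of all, just inside that interval. In the 200 bp windows the E-box CACGTG was found in 1, that in intron 1 of *Insig1*, and in 4.16% of all. The *Insig1* window also held 3 CCAAT matches. A string match is a description of letters and says nothing of whether a factor was bound.

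The HNF4 half-site (CAAAGGCCA, CAAAGGTCA, CAAAGTCCA or CAAAGTTCA), of a nuclear receptor with a wide role in hepatocyte genes, matched in 6 of 39 windows (15.4%, 5.86% to 30.5%), beside 7.85% of all windows, a value inside that interval. These were the *Hmgcs1* site 10.5 kb upstream, the *Ftcd* promoter site, the *Srebf2* sites at 19.5 kb, 36.6 kb and 37.6 kb, and the *Insig1* site 31.2 kb upstream. Both shared sites in intron 10 of *Srebf2* thus held it, and the first of them held the pair printed above. The DR1 string, a longer string that overlaps this half-site, matched at the *Ftcd* promoter alone (2.56%, beside 1.54%).

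The BCL6/STAT string TTCNNNGAA matched in 3 windows (7.69%, 1.62% to 20.9%), beside 7.10% of all windows, and all 3 were at *Hmgcs1*, 10.5 kb upstream and 25.8 kb and 64.8 kb downstream of its TSS. FOX (TGTTTAC) also matched in 3 (7.69%, beside 7.74%), 1 upstream of *Sqle* and the others at 3.43 kb and 18.2 kb upstream of *Insig2*. HNF6/CUX2 (TATCGATC, TATCGATT, TATTGATC or TATTGATT) matched in 2 windows (5.13%, beside 5.67%), at the *Idi1* peak and at the *Insig2* site at 3.43 kb. C/EBP (TTACGCAA, TTATGCAA, TTGCGCAA or TTGTGCAA) was found in 1 window (2.56%, beside 5.52%), 1689 bp upstream of *Insig2*, and ETS/ELK (CCGGAAGT) in 1 (2.56%, beside 0.757%), at the inner *Insig2* promoter. At least 1 of the 10 strings was in 21 of 39 windows (53.8%, 37.2% to 69.9%), beside 52.4% of all NCoR windows. For each of the 10 strings the exact interval of the 39 windows held the value of the whole list, and with 39 windows these intervals are wide. GC content had a median of 49.5% in the 39 windows and 48% in all, and the *Insig1* promoter was the highest of the 39 at 77.5%.

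**Figure D4:**
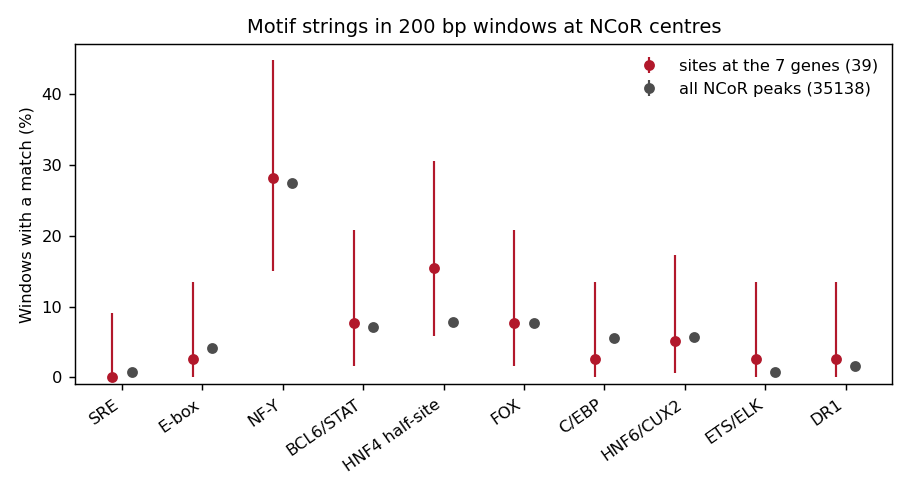
Percent of 200 bp windows at NCoR centres that held each motif string, for the 39 sites at the 7 genes (red, with exact 95% intervals) and for all 35138 NCoR peaks (grey). The HNF4 half-site has the widest gap, 15.4% beside 7.85%, and its interval runs from 5.86% to 30.5%.

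RefSeq promoter sequences, from 250 bases before to 50 after a gene's start, were at hand for 6 of the 7 genes, in 8 sequences. The SRE string was in 1 of them, at *Hmgcs1*, and in 1.24% of 32851 promoters. CCAAT was in 6 of 8 (all 6 genes), beside 37.4% of all promoters, and CACGTG in that of *Insig1*, beside 7.15%. The CCAAT of the *Insig1* promoter is the one printed above in the NCoR peak, while the CACGTG lies just past the end of that peak. The bases before the *Hmgcs1* start are shown because they hold the only SRE match, with the SRE, TCACCCCAC, and 3 NF-Y matches (ATTGG, which is CCAAT on the minus strand) in capitals, on the plus strand of GRCm38. The NCoR peak nearest to the *Hmgcs1* TSS was the one in intron 1, 8.12 kb away.
Hmgcs1 promoter, chr13:119690101-119690350: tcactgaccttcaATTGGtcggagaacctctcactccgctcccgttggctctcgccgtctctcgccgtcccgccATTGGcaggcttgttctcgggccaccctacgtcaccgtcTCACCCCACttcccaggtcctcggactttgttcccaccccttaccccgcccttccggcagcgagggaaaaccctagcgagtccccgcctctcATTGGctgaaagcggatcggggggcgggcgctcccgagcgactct

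The other genes of the pathway were taken as a list of 19, with 14 synthesis enzymes, 4 genes that make or activate SREBPs, and *Mylip*, which marks lipoprotein receptors for breakdown. NCoR peaks were at 16 of the 19 (72.3% of all protein-coding genes), HDAC3 peaks at 12 (52.1%), SMRT peaks at 10 (43.1%) and shared sites at 10 (39.2%), with medians of 4 NCoR peaks and 1 shared site per gene. Most shared sites were at *Fdft1*, squalene synthase, with 4 among 16 NCoR peaks. *Acat2*, which joins acetyl-CoA units, had 3 among 9. *Mvd*, mevalonate diphosphate decarboxylase, had 3 among 5, the nearest of them 1.15 kb from its TSS. *Scap*, the SREBP escort, had 3 among 9, and *Sc5d*, a sterol desaturase, had 2 among 7. These genes were thus 4 synthesis enzymes and 1 gene of SREBP activation. *Mylip* had 1 NCoR-only peak. No peak was listed at *Nsdhl*, a sterol dehydrogenase, or at *Mbtps1* and *Mbtps2*, the Golgi proteases that release SREBPs.

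Promoters set the synthesis enzymes of this wider list beside those of the 7 genes. An NCoR promoter peak, present at 16.8% of protein-coding genes, was listed at 7 of 14 enzymes (*Mvk*, *Fdft1*, *Cyp51*, *Tm7sf2*, *Ebp*, *Sc5d* and *Dhcr7*) and at 0 of the 4 member enzymes. *Mvk*, *Cyp51*, *Ebp* and *Dhcr7* had such a peak with no shared site in their windows, and their nearest NCoR peaks were 0.262 kb, 0.037 kb, 0.01 kb and 0.14 kb from a TSS. *Scap* was the other gene with an NCoR promoter peak, and *Mvk* the one with an HDAC3 promoter peak. No SMRT peak was at a promoter of the 19. The difference between the lists was not tested.

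**Figure D5:**
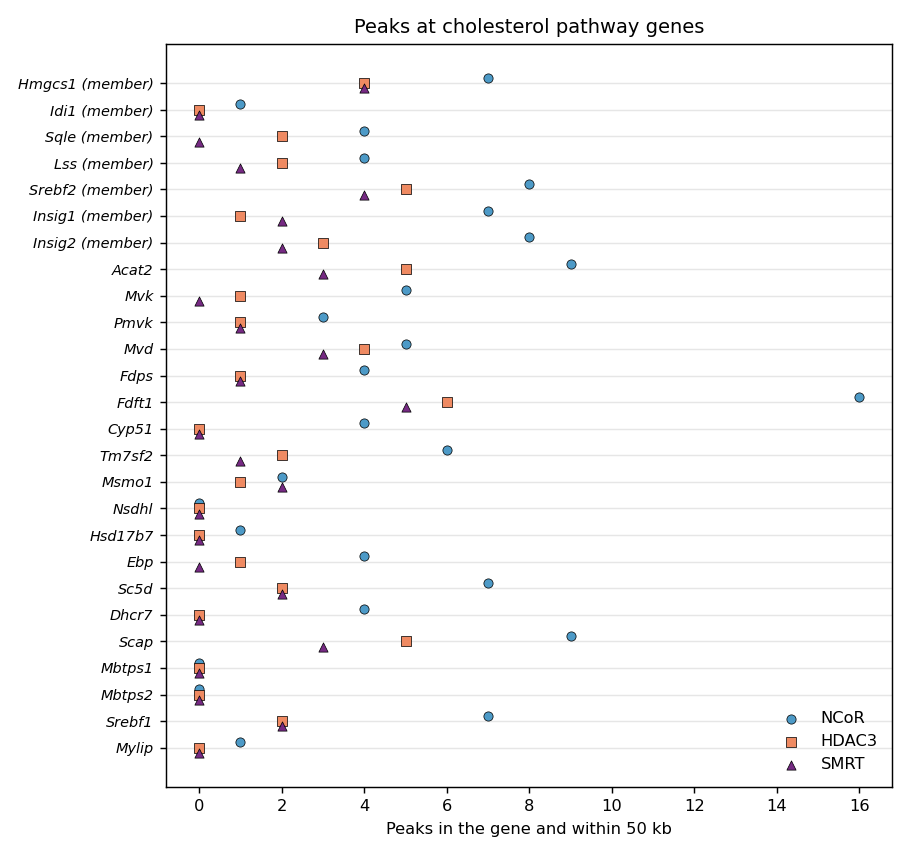
Number of NCoR, HDAC3 and SMRT peaks (horizontal axis) in each gene and within 50 kb, for the 7 genes (marked as members) and the 19 other genes of the pathway. NCoR runs from 0 at Nsdhl, Mbtps1 and Mbtps2 to 16 at Fdft1, with Srebf2 and Insig2 at 8 and Idi1 at 1.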

How the data were processed

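ChIP-seq libraries for SMRT, NCoR and HDAC3 (custom polyclonal antibodies for SMRT and NCoR, a commercial one for HDAC3) were aligned by the authors to mm10 with Bowtie, keeping uniquely mapped reads. Peaks were called by the authors with HOMER on 3 pooled replicates per cofactor against input and kept where DESeq2 on the single libraries passed their thresholds. The deposited lists hold chromosome, start and end, with a fixed length of 228 bp (NCoR) or 212 bp (SMRT, HDAC3). Depth per sample was not given, so precision is limited to the counting intervals printed.

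Here, peaks were placed on the GENCODE vM21 basic annotation and the GRCm38 sequence (Python 3.11.15, pandas 2.3.3, scipy 1.17.1). Overlap followed the study's rule of centres within 200 bp. The scripts were tested on simulated data. No test between groups was made. Alternatives were other overlap rules, flanks of 20 kb and 100 kb, other TSS sets, other promoters and other motif windows.

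The genes, lists, strings and rules were chosen with earlier results of these data known. Strings other than SRE, E-box, NF-Y and the wider BCL6/STAT came from an earlier analysis of these lists. Named were all 7 genes, of the other pathway genes the 5 that held most shared sites (ties broken by symbol) and those with no peak, and the neighbours that hold the nearest TSS of a shared site. Other genes are named where a count of 5 or fewer, a promoter peak or a nearest TSS singles them out, and were chosen after their values were seen. A sequence was printed for the shared site nearest to each gene, outside untranslated regions. Some genes of the pathway list are not reported here.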

Additional observations from a re-analysis of the deposited data

How the results depend on the processing

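No paired analysis was possible because the peaks were called on pooled libraries and carry no value for any single one. Leaving out a replicate and a stricter peak threshold were not run for the same reason, as the lists hold neither replicate values nor scores. Of 37 recomputed counts and shares, 28 stayed within their limits. Shared sites at the genes numbered 10 with a flank of 20 kb, 14 with 100 kb and 11 with centres within 100 bp, against 12. The share of protein-coding genes with a shared site was 38.5% with centres within 100 bp, 25.9% with a 20 kb flank and 52.9% with a 100 kb flank, against 39.2%. NCoR peaks assigned to the genes numbered 8 with TSSs of all annotated transcripts, against 27, since more start sites then compete. Own-promoter NCoR peaks numbered 10 with 5000 bp on either side, against 2. Windows with any of the 10 strings made 35.9% at the genes and 33.8% of all at 100 bp, and 79.5% and 70.5% at 400 bp, as longer windows hold more letters. Of 40 recomputed shares of single strings, 23 moved, among them every whole-list share, whose intervals are narrow. At the genes, the shares that moved were those of E-box and ETS/ELK at 100 bp and of NF-Y at 400 bp. Peak heights and depth are unknown, so a missing peak says only that none was listed.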
